A study of Mus musculus with 6 samples.

Results

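The renin-angiotensin system was followed here through 9 genes: the enzyme renin (Ren1), its substrate angiotensinogen (Agt), the peptidases Ace, Enpep and Mme, the receptors Agtr1a, Agtr1b and Mas1, and the prorenin receptor Atp6ap2. They were taken by gene symbol, and all 9 had a row among the 24422 genes listed. Poly-A RNA of whole kidney was sequenced in 3 control and 3 TfR1KO;KspCre libraries from C57BL/6 mice at postnatal day 60, all kept on an iron-sufficient diet of 220 ppm. The control mice are labelled wild type. In TfR1KO;KspCre mice (called knockout below, which stands for the label), exons 3 and 4 of the transferrin receptor gene Tfrc (TfR1) are floxed, and Cre comes from the Ksp-cadherin promoter, active in the distal nephron and collecting duct, so cells elsewhere in the kidney are not targeted. Mice of both sexes were used in the study.

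Renin cleaves angiotensinogen to angiotensin I, and angiotensin-converting enzyme (Ace) trims this to angiotensin II, which raises blood pressure and sodium retention through the AT1 receptors. Other membrane peptidases shorten or divert the peptides: aminopeptidase A (Enpep) removes the first residue of angiotensin II, and neprilysin (Mme) yields the shorter peptide that Mas binds. Within the kidney, renin is made by juxtaglomerular cells, while angiotensinogen and much of the peptidase activity sit in the proximal tubule (PT) and its brush border.

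Library totals ranged from 11501053 to 21001341 counts. On the first principal component, with 69.4% of the variance, the library labelled knockout 1 scored 9.67, between the controls (-72.6 to -53.2) and knockouts 2 and 3 (88.6 and 82.1). Control 2 alone carried Y-linked transcripts, with 3980 counts over 4 genes against 3 to 5 elsewhere. The count of Tfrc covers the whole gene and all cell types, so it is a weak check of the labels. It stood at 138, 168 and 62.0 CPM (counts per 1e6 counts of a library) in controls 1 to 3 and at 214, 86.0 and 40.6 CPM in knockouts 1 to 3, so the library labelled knockout 1 lay above every control. PT markers (12 genes such as Lrp2 and Slc34a1) all had log2 fold changes below 0, beside 48.5% of all genes tested. Of the 12, 9 were called lower, beside 6.64% of all genes tested. The summed CPM of the 12 was 15000 to 19900 in controls against 8360, 3260 and 2750 in knockouts 1 to 3. Marker sums of mural and mesangial cells, which include the renin cell lineage, were 382 to 444 CPM in controls and 601, 1610 and 4110 CPM in knockouts. Of these 8 genes, 4 were called higher, beside 10.6% of all genes tested. In whole-kidney RNA, fewer cells of a type and less RNA per cell cannot be told apart.

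Sequences are shown for the members whose reads or promoters bear on the results. The coding sequences of Agtr1a and Agtr1b, the pair of mouse AT1 receptors, each span 1080 bases in GENCODE M1 (mm9) and share 90.8% of them. They differ at 99 positions, and their longest identical run is 66 bases. The first 90 coding bases are given to show how reads of the pair can be assigned, with the 8 differing positions in capitals.
Agtr1a: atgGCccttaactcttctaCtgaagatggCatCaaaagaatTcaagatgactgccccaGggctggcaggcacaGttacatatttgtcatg
Agtr1b: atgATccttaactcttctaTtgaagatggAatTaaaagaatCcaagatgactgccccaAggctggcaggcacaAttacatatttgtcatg

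The promoters of Agt and Ace are shown because Agt is the substrate gene and Ace was the member called in the test, and that of Cltrn because it was the gene in the wider list with hepatocyte nuclear factor 1 (HNF1) half-sites. Each covers 300 bases around a RefSeq transcription start (GRCm38.p6), of which the last 50 follow it, and is written, 5′ to 3′ on the gene's strand. Capitals mark TATAA in Agt (minus strand), the overlapping TATAA and its reverse TTATA in Ace (plus strand), and GTTAAT and its reverse ATTAAC in Cltrn (plus strand).
Agt chr8:124569657-124569956: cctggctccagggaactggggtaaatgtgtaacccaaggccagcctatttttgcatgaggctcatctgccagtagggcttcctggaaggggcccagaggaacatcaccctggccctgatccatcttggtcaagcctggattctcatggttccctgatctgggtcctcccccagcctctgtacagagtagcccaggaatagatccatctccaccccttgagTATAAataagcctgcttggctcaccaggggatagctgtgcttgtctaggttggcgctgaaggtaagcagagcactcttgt
Ace chr11:105967698-105967997: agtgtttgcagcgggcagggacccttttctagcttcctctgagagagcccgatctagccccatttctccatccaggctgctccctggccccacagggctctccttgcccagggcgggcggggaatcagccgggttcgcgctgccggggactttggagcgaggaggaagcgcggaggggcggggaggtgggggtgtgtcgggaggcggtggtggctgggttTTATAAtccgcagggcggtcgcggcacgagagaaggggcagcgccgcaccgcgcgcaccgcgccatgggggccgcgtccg
Cltrn chrX:164089937-164090236: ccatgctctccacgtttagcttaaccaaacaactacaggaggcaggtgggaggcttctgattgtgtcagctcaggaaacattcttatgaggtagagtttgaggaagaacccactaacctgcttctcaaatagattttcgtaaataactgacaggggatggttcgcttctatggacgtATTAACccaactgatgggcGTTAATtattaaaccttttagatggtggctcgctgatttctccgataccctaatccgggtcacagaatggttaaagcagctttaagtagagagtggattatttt

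On both strands, TATAA was found in 24.9% of the 32851 promoters in the table and GTTAAT in 7.1%. Of the 9 members, 8 had an entry, and 5 of them (Ren1, Agt, Ace, Enpep and Agtr1b) held TATAA, which began 30 bases before the start in Agt. No member's promoter held GTTAAT, the cAMP response element TGACGTCA (1.79% of promoters) or the HNF4 core CAAAGTCCA (0.475%). The half-sites of Cltrn lay 73 and 54 bases before the start shown. Ace and Cltrn each have 2 starts in the table, and the second start of Ace held no TATAA and that of Cltrn no GTTAAT. Genes with several starts were counted once if any window matched, while the shares are over single promoters, so the counts are not to be set against them. These matches describe the letters in the windows only.

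Ren1 (chromosome 1, 135247087 to 135256902, plus strand, mm9, as are the coordinates of genes from here on), which encodes renin, was listed at 0 counts in all 6 libraries, as was the row of the related gene Ren2. A count of 0 allows up to 3 counts, or 0.147 to 0.23 CPM depending on the library. The 0 is the value of the deposited row and is not read here as the absence of the transcript, since 4664 genes (19.1%) were listed at 0 throughout and the annotation used in counting is not given in the sources used here. In GENCODE M1, Ren1 overlaps the exons of no other gene. There, 100% of the 100-base words of its transcript were unique among the longest protein-coding transcripts of the genes. These checks do not cover the annotation used in counting, so overlap or shared sequence between the Ren1 and Ren2 rows was not checked. What left the row at 0 was not tested.

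Agt (chromosome 8, 127080434 to 127093606, minus strand), the substrate gene, was at 88.7, 93.3 and 72.8 CPM in controls 1 to 3 and at 101, 35.0 and 29.3 CPM in knockouts 1 to 3. The library labelled knockout 1 was above every control and the other knockouts were below every control, so the groups overlapped. The log2 fold change was -0.62 (SE 0.46, n = 3 per group, edgeR quasi-likelihood test, adjusted p = 0.350). Without knockout 1 it was -1.41 (edgeR, adjusted p = 0.0036), without knockout 2 it was -0.38 and without knockout 3 it was -0.32 (edgeR, adjusted p = 0.62 and 0.654), so its size and its call turned on single libraries.

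Ace (chromosome 11, 105829259 to 105851278, plus strand), the enzyme that makes angiotensin II, was the member that fell. It was at 164, 287 and 118 CPM in controls 1 to 3 and at 76.2, 30.3 and 26.4 CPM in knockouts 1 to 3. All 3 knockouts were below the lowest control, and control 2, the library with Y-linked transcripts, was the highest. The fall was 4.27-fold, a log2 fold change of -2.10 (SE 0.51, n = 3 per group, edgeR quasi-likelihood test, adjusted p = 0.0393). Without control 2 it was -1.68 and no longer passed (edgeR, adjusted p = 0.124), while without knockout 1 it was -2.75 (edgeR, adjusted p = 0.00529). Without control 1, control 3, knockout 2 or knockout 3 it was -2.21, -2.35, -1.88 and -1.83, with adjusted p from 0.0853 to 0.11 in edgeR. In edgeR 0 genes of the whole table passed without any 1 control (4270 to 4823 at an unadjusted p under 0.05), so no call could be kept there, and 73 and 2 genes passed without knockouts 2 and 3. With Xist over Y-linked counts (log2) as a covariate, Ace was at -1.69 (edgeR, adjusted p = 0.12), with 0 genes called (4221 at an unadjusted p under 0.05). Control 2 alone carried Y-linked transcripts, so this fit lay close to the one without control 2 and is not a separate check. The exons of Ace share 295 bases with the transcript Gm11651 on the opposite strand, whose reads could not be separated where counting ignored strand.

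**Figure D1:**
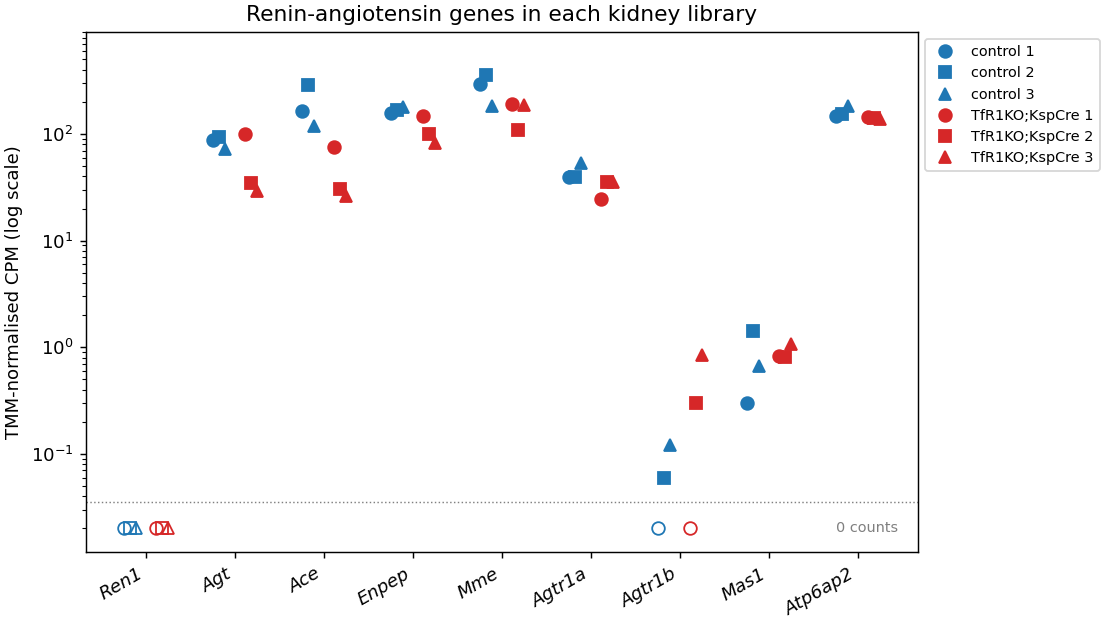
TMM-normalised CPM (log scale) of the 9 members in each of the 6 libraries, with controls in blue, knockouts in red and open symbols under the dotted line for 0 counts. Ace sits lower in all 3 knockouts (26.4 to 76.2 CPM) than in the controls (118 to 287 CPM), and Ren1 sits at 0 throughout.

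Enpep (chromosome 3, 128972093 to 129035638, minus strand), which encodes aminopeptidase A, was at 158, 168 and 181 CPM in controls 1 to 3 and at 147, 99.7 and 82.6 CPM in knockouts 1 to 3. The groups did not overlap, although knockout 1 was close to control 1. The log2 fold change of -0.62 (SE 0.23, edgeR quasi-likelihood test, adjusted p = 0.0946) did not pass, while without knockout 1 it was -0.90 (edgeR, adjusted p = 0.00809), and DESeq2, which called 32.2% of all genes tested, called Enpep with all 6 libraries (adjusted p = 0.0427).

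Mme (chromosome 3, 63099794 to 63186153, plus strand), which encodes neprilysin, was at 293, 360 and 182 CPM in controls 1 to 3 and at 193, 110 and 188 CPM in knockouts 1 to 3. Control 3 lay below knockouts 1 and 3, so the groups overlapped. The log2 fold change was -0.77 (SE 0.32, edgeR, adjusted p = 0.126).

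Agtr1a (chromosome 13, 30428310 to 30474736, plus strand), the main AT1 receptor of the mouse kidney, was at 39.7, 39.8 and 53.5 CPM in controls 1 to 3 and at 24.8, 35.3 and 35.8 CPM in knockouts 1 to 3. The groups did not overlap, with knockout 1 the lowest library here, unlike in Ace, Enpep and Agt. The log2 fold change, -0.47 (SE 0.20, adjusted p = 0.133 in edgeR), did not pass.

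Agtr1b (chromosome 3, 20213395 to 20266099, minus strand), the second AT1 receptor, had 0, 1 and 2 counts in controls 1 to 3, against 0, 6 and 11 in knockouts 1 to 3, too few for the filter. The ratio of CPM over the groups, knockout to control, was 5.71 (exact 95% interval 1.65 to 30.4, counting error only), and knockout 1 at 0 overlapped the controls. Without the filter on low counts the log2 fold change was 2.50 (SE 1.42, edgeR, adjusted p = 0.265). Agtr1b made up 0% to 0.224% of the reads of both receptors in controls and 0% to 2.3% in knockouts, the highest share being 11 of 478 counts in knockout 3 (exact Clopper-Pearson 95% interval 1.15% to 4.08%).

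Mas1 (chromosome 17, 13033945 to 13061009, minus strand), the receptor of the heptapeptide branch, had 6, 24 and 11 counts in controls 1 to 3, against 17, 16 and 14 in knockouts 1 to 3. All knockouts lay within the control range. Its log2 fold change, 0.19 (SE 0.57, adjusted p = 0.825 in edgeR), turned to -0.22 without control 1, so no direction was detectable at this depth.

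Atp6ap2 (chromosome X, 12164927 to 12194175, plus strand), the prorenin receptor and an accessory protein of the vacuolar proton pump, was at 148, 153 and 183 CPM in controls 1 to 3 and at 143, 142 and 137 CPM in knockouts 1 to 3. The ranges did not overlap, but the difference was small, at -0.20 on the log2 scale (SE 0.14, adjusted p = 0.347 in edgeR), and the sign turned (0.07) under library size alone.

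Of the 9 members, 7 passed the filter on low counts and 1 of these, Ace, was called, beside 17.2% of the 15171 genes tested. Lower calls made up 6.64% of all genes tested. Log2 fold changes of 6 of the 7 were below 0, beside 48.5% of all genes, and their median was -0.62 against 0.021 over all genes. CPM ranges lay wholly lower in knockouts for 4 of the 7 (Ace, Enpep, Agtr1a and Atp6ap2), beside 22.2% of all genes tested, and 46% of all genes had ranges apart in either direction. Without knockout 1, the count rose to 3 (Ace, Agt and Enpep), where 34.4% of all genes were called.

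**Figure D2:**
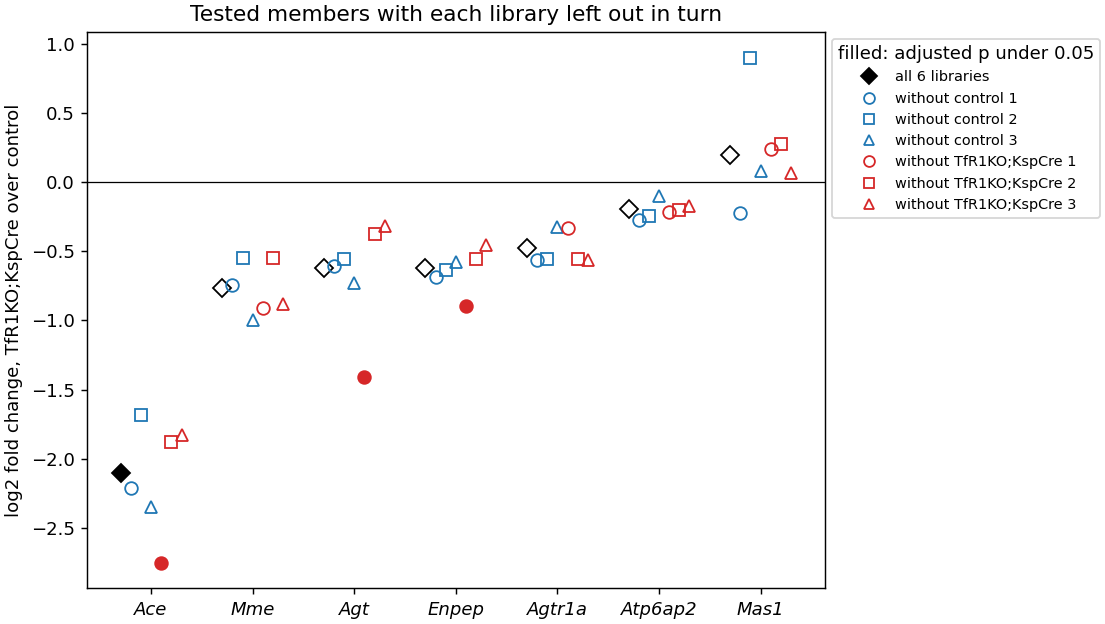
Log2 fold change (knockout over control) of the 7 tested members with all 6 libraries (black diamonds) and with each library left out in turn, filled where the edgeR adjusted p was under 0.05. Leaving out knockout 1 moves Agt from -0.62 to -1.41 and Ace from -2.10 to -2.75, and Mas1 crosses 0.

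Levels were compared between genes on the scale of CPM per kb of exon. In controls the mean levels were 63.6 for Mme, 61.7 for Atp6ap2, 44.9 for Agt, 35.9 for Enpep, 35.8 for Ace and 18.0 for Agtr1a, with Mas1 at 0.301 and Agtr1b at 0.0278. The range of Mme (41.6 to 82.3) overlapped those of Atp6ap2, Agt and Ace, and the range of Ace (22.4 to 54.2) also overlapped those of Agt and Enpep. The order within these pairs was therefore within the spread, while the ranges of the other pairs were apart. Agt and Enpep met almost at the edge (38.5 to 49.3 against 33.6 to 38.4), and Ace lay just over Agtr1a (16.1 to 21.7). In knockouts the order was Atp6ap2 (53.9), Mme (37.3), Agt (29.2), Enpep (23.3), Agtr1a (12.9) and Ace (8.37). The range of Agt (15.5 to 53.4) overlapped those of Atp6ap2, Mme and Enpep, those of Mme and Enpep overlapped, and so did those of Agtr1a and Ace, which reached 14.5 and 14.4.

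Among 32 further genes of the pathway, from peptidases to the aldosterone response, 28 passed the filter and 6 were called, 3 lower and 3 higher, beside 17.2% of all genes tested (6.64% lower and 10.6% higher). Their median log2 fold change was -0.02. Ctsg and Mrgprd were listed at 0, and Agtr2 and Bdkrb1 had too few counts for the test. All 6 calls were lost without any 1 control, knockout 2 or knockout 3, where 0 to 73 genes of the whole table passed, and 10 genes were called without knockout 1, where 34.4% of all genes were. With each library left out, log2 fold changes stayed between -1.91 and -1.53 for Anpep and between 1.78 and 2.13 for Ptger4.

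Of the 11 other peptidases and kinin genes tested, 1 fell, beside 6.64% of all genes tested called lower. Anpep (chromosome 7, 86966689 to 86993096, minus strand), aminopeptidase N of the brush border, was at 180, 212 and 199 CPM in controls and at 82.5, 53.8 and 51.6 CPM in knockouts, a difference of -1.65 on the log2 scale (SE 0.22, adjusted p = 0.0271 in edgeR). The groups did not overlap, and the knockout order (1 highest, 3 lowest) was that of Ace. Tissue kallikrein (Klk1), which frees kinins, and its substrate kininogen (Kng1) had log2 fold changes of -1.03 and -1.01 that did not pass (edgeR, adjusted p = 0.0911 and 0.177). Without knockout 1 they were -1.28 and -1.64 and passed (edgeR, adjusted p = 0.0315 and 0.0267), where 34.4% of all genes were called. DESeq2, which called 32.2% of all genes tested, called Klk1 (adjusted p = 0.00962). Lnpep, the angiotensin IV receptor, was at -0.40 and dipeptidyl peptidase 3 (Dpp3) at 0.24. The peptidases Prep, Prcp, Thop1, Nln and Rnpep and the chymase Cma1 were not called.

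Among the receptor partners, Cltrn (chromosome X, 160526762 to 160556792, plus strand, listed under its older symbol Tmem27) fell. It encodes collectrin, which carries amino acid transporters to the brush border. Its CPM was 1040, 1470 and 2210 in controls 1 to 3, against 696, 428 and 279 in knockouts 1 to 3, without overlap, and its log2 fold change was -1.75 (SE 0.44, edgeR, adjusted p = 0.0414). Agtrap, which lowers AT1 receptor levels at the membrane, had -0.64 (edgeR, adjusted p = 0.0593), and the bradykinin receptor Bdkrb2 had 1.86 from 3 to 10 counts in controls and 21 to 22 in knockouts (edgeR, adjusted p = 0.0555). Neither passed.

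Of the 11 genes of the renin cell and of renin release, 3 rose and 1 fell, beside 10.6% and 6.64% of all genes tested. The connexins Gja5 and Gja4, which couple renin cells with the vessel wall and endothelium, rose by 1.11 (SE 0.20, adjusted p = 0.0289) and 1.61 (SE 0.41, adjusted p = 0.0430) on the log2 scale in edgeR. Ptger4, the prostaglandin receptor through which renin release is driven, was at 5.42, 5.35 and 5.94 CPM in controls and at 14.0, 24.7 and 24.4 CPM in knockouts, a rise of 1.91 on the log2 scale (SE 0.27, adjusted p = 0.0271 in edgeR). Vdr, the vitamin D receptor, known to restrain renin transcription and also made in the tubule, was at 238, 297 and 369 CPM in controls and at 174, 94.4 and 101 CPM in knockouts and fell by 1.29 on the log2 scale (SE 0.30, edgeR, adjusted p = 0.0361). None of the 4 overlapped between groups, which held for 46% of all genes tested. Gja4 was at 7.91, 5.76 and 8.88 CPM in controls and at 16.5, 14.5 and 38.1 CPM in knockouts, highest in knockout 3, which also had the highest mural and mesangial sum. Without knockout 3 its log2 fold change was 1.04 (edgeR, adjusted p = 0.0772). With limma-voom, it was at 1.41 and did not pass (adjusted p = 0.0693).

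These calls went with other marker lists. Besides the mural and mesangial sums above, genes of leukocytes, cells that also make Ptger4, were called higher for 5 of 7, beside 10.6% of all genes tested. Leukocyte sums were 123 to 139 CPM in controls and 191, 537 and 189 CPM in knockouts 1 to 3. Genes of the endothelium, which makes Gja5 and Gja4, were called for 0 of 6, beside 17.2% of all genes tested. Endothelial sums were 345 to 703 CPM in controls and 617 to 726 CPM in knockouts. CPM ranges of 2 of the 6 (Pecam1 and Cdh5) lay wholly higher in knockouts, where 46% of all genes had ranges apart in either direction. The part of these cell types in the rises was not tested. Exons of Gja5 share 165 bases with Gpr89 and those of Ptger4 share 1097 bases with genes on the opposite strand.

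The other renin cell genes did not pass. Akr1b7, an aldo-keto reductase made with renin, was at 4.64 to 6.66 CPM in controls and at 10.1, 6.47 and 24.5 CPM in knockouts 1 to 3 (log2 fold change 1.32, edgeR, adjusted p = 0.0995), so that it was detected in every library in which Ren1 was listed at 0. Without knockout 3 its log2 fold change was 0.60 (edgeR, adjusted p = 0.274). DESeq2, which called 32.2% of all genes tested, called Akr1b7 (adjusted p = 0.0399). The renin-driving beta receptor Adrb1 had -0.84, the Notch effector Rbpj 0.45, the adenosine receptor Adora1 0.47, the natriuretic peptide receptor Npr1 0.31, the macula densa synthase Nos1 0.03, and the macula densa cyclooxygenase Ptgs2 was at 1.86 to 5.82 CPM in controls and 1.82 to 6.21 CPM in knockouts. Signs of Nos1 and Ptgs2 turned with the processing. None of the 3 genes of the aldosterone response passed, with log2 fold changes of -0.40 for the kinase Sgk1, -0.39 for Hsd11b2, which shields the receptor from glucocorticoids, and -0.25 for the mineralocorticoid receptor Nr3c2, which turned to 0.02 under library size alone. Of 8 adrenal cortex markers, 7 were too low for the test, Cyp11b2 among them at 0. Star, which carries cholesterol into mitochondria, was the tested one, at 7.17 to 13.2 CPM, and gave most of the sums of the list, 7.58 to 9.48 CPM in controls and 8.15 to 15 CPM in knockouts.

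**Figure D3:**
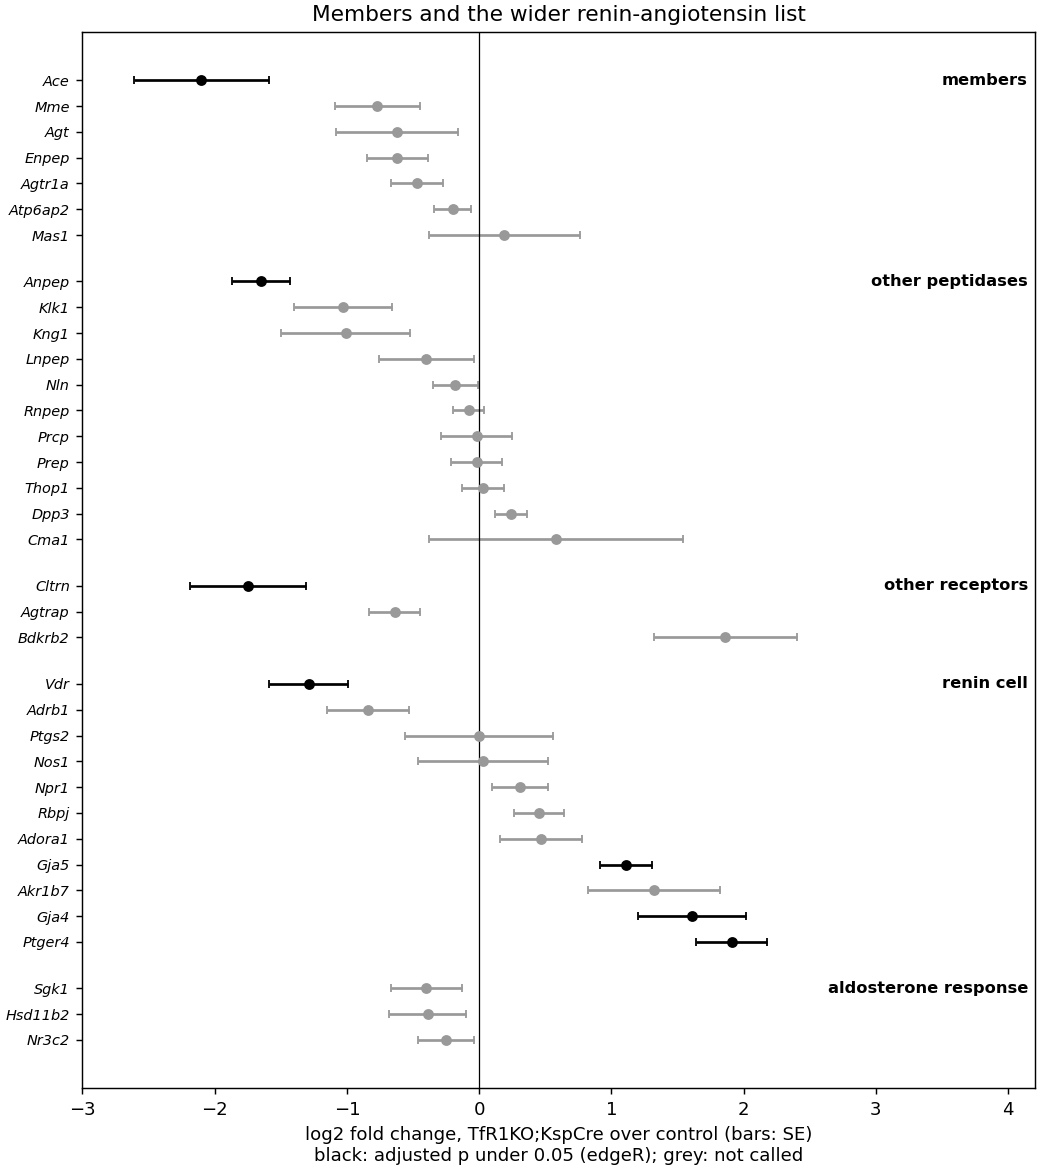
Log2 fold change, knockout over control, of the 7 tested members and the 28 tested genes of the wider list, by role, with bars of 1 SE and black where the edgeR adjusted p was under 0.05. Ace, Anpep, Cltrn and Vdr lie below 0 in black, and Gja5, Gja4 and Ptger4 above 0.

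Because Ace and the brush border peptidases are made in the PT, their levels were set beside the PT markers. Relative to the control mean, Ace was at 40.2%, 16% and 13.9% in knockouts 1 to 3, and the summed PT markers were at 46.8%, 18.2% and 15.3%. Anpep was at 41.9%, 27.3% and 26.2%, and Cltrn was at 44.3%, 27.2% and 17.7%. Enpep was at 87.2%, 59% and 48.9%, and Mme at 69.2%, 39.5% and 67.5%, above the summed PT markers in each knockout. Single markers differed from the sum. Aqp1 was at 1390, 1380 and 856 CPM in controls 1 to 3 and at 1160, 353 and 324 CPM in knockouts 1 to 3.

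Set against the mean log2 CPM of the PT markers in the same library, Ace had a log2 ratio of -2.49, -1.95 and -3.33 in controls 1 to 3 and of -2.68, -2.85 and -2.74 in knockouts 1 to 3. The difference of -0.17 was within the spread (exact permutation test, two-sided, p = 0.7). The overlap rested on control 3, without which the ratios of Ace lay lower in knockouts than in controls. All 7 tested members then had ratios apart, but the share over all genes was not taken without control 3. Neither is therefore a result about these members. Differences were also within the spread for Anpep (0.32) and Cltrn (0.22). The ratios of the 6 other tested members were all higher in knockouts, without overlap, by 1.15 (Agt) to 2.36 (Mas1), each at p = 0.1 in the exact permutation test, the smallest that 3 against 3 libraries allow. The same held for 91% of all genes tested, so the count is not a result about these members. Whether the fall of Ace and of the PT markers has 1 origin was not tested.

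**Figure D4:**
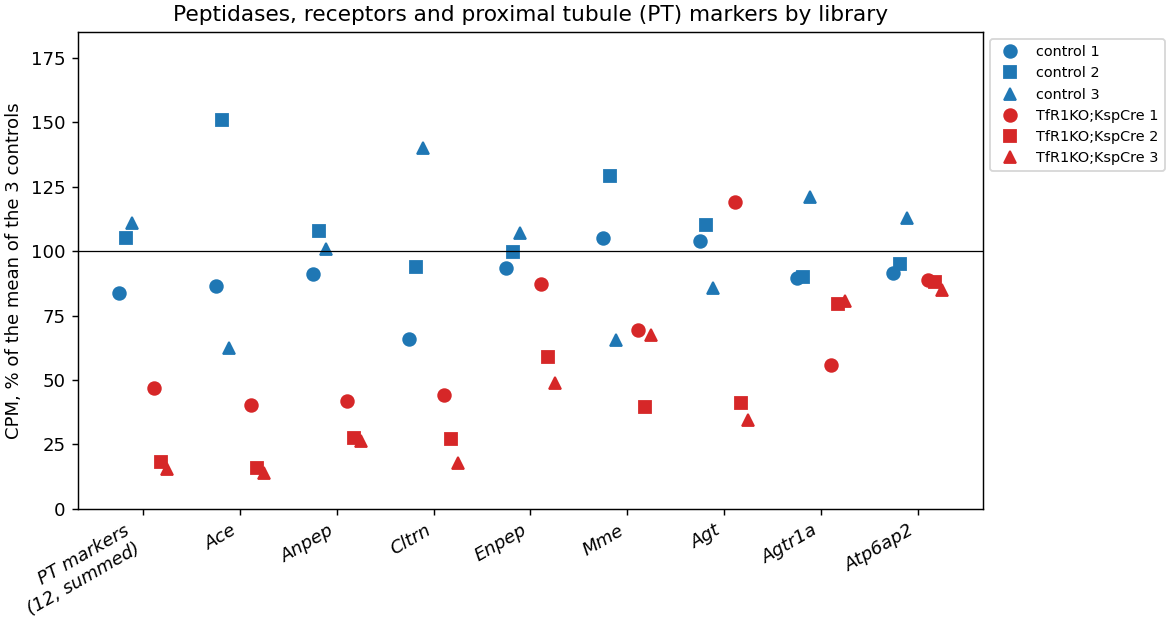
CPM of PT markers (12 genes, summed) and of 8 pathway genes in each library, as a percentage of the mean of the 3 controls (black line at 100). Ace in knockouts (40.2, 16 and 13.9%) lies near the PT markers (46.8, 18.2 and 15.3%), and Agtr1a and Atp6ap2 lie at 55.9% or more.

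The genes most like Agt across the 6 libraries, by the root mean square difference of centred log2 CPM among 11337 genes, were Pantr1 (0.128), Slc25a33 (0.132) and Got1 (0.136). Got1, for example, was at 183, 171 and 147 CPM in controls and at 176, 70.9 and 69.1 CPM in knockouts. In each of them, as in Agt, knockout 1 lay within or just above the control range and knockouts 2 and 3 lay below it. Ren1, at 0 throughout, gave no such list.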

How the data were processed

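RNA was TRIzol-extracted and libraries were made with TruSeq kits. Per the labels and the methods, the authors called bases with CASAVA 1.8.2, trimmed with Trimmomatic, aligned to mm9 with TopHat2 2.0.11 and counted reads per gene with HTSeq. The deposited tables hold raw read counts, not normalized, and all 6 columns were mapped to samples by their labels. The annotation and strand setting of the counting are not given in the sources used here. Counts of overlapping or antisense genes are therefore uncertain.

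Groups and replicate numbers came from the sample titles. The labels do not name the animals, and the supplement of the study gives 3 mice per model. Genes were filtered by filterByExpr (minimum count 10, minimum total 15), scaled by TMM and tested with edgeR 4.0.16 (quasi-likelihood, legacy version) in R 4.3.3, with Benjamini-Hochberg adjustment over 15171 genes and a threshold of 0.05. Standard errors are the log2 fold change over the square root of F. CPM are TMM-normalised, and the prior count of log2 CPM was 2. Alternatives used limma 3.58.1, DESeq2 1.42.0, other scalings and filters, covariates and left-out libraries. Scripts were tested on simulated data. Intervals and floors (3 counts) cover counting error only.

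Members and lists were chosen with earlier results of these data known. The genes named are all members, the wider list, Tfrc, the markers and the 3 genes most like Agt. A gene of the pathway is not reported here, and counts over the wider list leave it out. Promoters are from RefSeq (GRCm38.p6, 36 of 41 genes matched) and coordinates from GENCODE M1.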

Additional observations from a re-analysis of the deposited data

How the results depend on the processing

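The count of called members was 1 in the reported fit and 1 under 7 alternatives (3 scalings, 2 filters, limma-voom and the newer quasi-likelihood version). It was 2 with DESeq2's Wald test (Ace and Enpep), 0 with the replicate block, 0 with the Xist to Y-linked ratio as covariate, and 0 to 3 with each library left out. At an unadjusted p under 0.05 in edgeR it was 3 in the reported fit, 3 with the block and 1 with the covariate. Of the 15171 genes tested, 5862, 5432 and 4221 were under that threshold in these fits, in the same order. The wider list held 6 calls, against 10 with DESeq2, 9 with library size alone (Bdkrb2, Dpp3 and Rbpj gained), 5 with limma-voom (Gja4 lost), 0 with the block, 0 with the covariate and 0 to 10 with each library left out, and at an unadjusted p under 0.05 it held 12 in the reported fit and 10 with the block and with the covariate. Over all genes, 2612 were called, against 4882 with DESeq2, 0 with the block (5432 at an unadjusted p under 0.05), 0 with the covariate (4221) and 0 to 5332 with a library left out. The cause was not tested. Scaling by library size only moved the median log2 fold change from 0.021 to 0.29 and the share of higher calls from 61.4% to 81.8%.

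Replicate numbers did not pair the samples. Deviations of same-numbered libraries correlated at -0.129, 0.0116 and 0.215, and with the replicate block Ace had a log2 fold change of -2.17 (edgeR, adjusted p = 0.074). Over its 16 alternatives, Ace ranged from -2.75 to -1.68 with adjusted p from 0.000294 to 0.124.

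Signs turned for 2 tested members and 9 genes of the wider list. With library size alone, log2 fold changes were 0.075 for Atp6ap2, 0.018 for Nr3c2, 0.137 for Tfrc and 0.279 for Ptgs2. Tfrc was 0.152 with the covariate. Nos1 was -0.22 in limma-voom and -0.142 with the block. Ptgs2 was 0.088 with upper quartile scaling, 0.012 with the stricter filter and 0.014 with the covariate. With each library left out, Mas1 ranged from -0.221 to 0.899, Nos1 from -0.639 to 0.35, Ptgs2 from -0.522 to 0.427 and Tfrc from -0.963 to 0.29. Depth limits Agtr1b and Mas1, at 24 counts or fewer per library.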

Other observations

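Ratios between peptidases within a library were chosen after the values of the genes had been seen, so they are given as a description with no test. Enpep over Anpep, aminopeptidases that act one after the other on angiotensin II, was 0.879, 0.793 and 0.907 in controls and 1.79, 1.85 and 1.6 in knockouts. These did not overlap, knockout 1 included. Ace over Enpep was 1.04, 1.7 and 0.654 in controls and 0.517, 0.304 and 0.319 in knockouts, again without overlap.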
